A study of Bos taurus with 21 samples.

Results

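ENSBTAT00000002431 and ENSBTAT00000026346 are Ensembl bovine transcript identifiers whose read counts in the uterine lining were lower in pregnant than in cyclic heifers at day 16. They are 2 of the 28054 identifiers counted, and both were among the 14807 that passed the filter on low counts. They were picked by their identifiers from the pregnant against cyclic comparison at day 16, in which 141 transcripts were higher and only 3 (0.0203% of those tested) were lower at a Benjamini-Hochberg adjusted p under 0.05 in edgeR's quasi-likelihood test. That comparison therefore supports nothing here and is given as a description. The values that picked them were adjusted p of 0.00182 for ENSBTAT00000002431 and 0.0219 for ENSBTAT00000026346. The latter passed the threshold in 21 of 32 alternative settings and missed it, for example, with limma voom (0.114) and with only the day 16 groups in the fit (0.129), while the former passed in 32 of 32. The third transcript inside the threshold had an adjusted p of 0.0292 and a log2 fold change of -0.69, and the nearest lower one outside it had 0.0561 and -0.88. The files do not pair identifiers with gene names, and 0 matched the reference table, so the genes behind the pair, their positions and their sequences are not given here. No other identifier had the same counts as either of them in all 21 libraries. Whether counting used strand, or shared reads between similar transcripts, is not given in the sources used here.

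The endometrium was sampled from 20 cross-bred beef heifers with synchronised oestrous cycles, 5 in each of 4 groups: cyclic day 13, cyclic day 16, pregnant day 13 and pregnant day 16. Cyclic heifers were not inseminated, and pregnant heifers were inseminated and kept only where a conceptus of the proper stage was flushed from the uterus. All 20 shared a progesterone device and a prostaglandin analogue before oestrus, and the tissue was mostly intercaruncular, from the horn beside the corpus luteum. The age of the heifers is not given in the sources used here, and cell type markers could not be looked up without gene names.

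At day 13 the conceptus of cattle begins to elongate, and at day 16 the mother recognises the pregnancy. In a cow without a conceptus, the endometrium in this period becomes responsive to oxytocin and starts to release the pulses of prostaglandin that end the life of the corpus luteum. A conceptus secretes interferon tau, which acts on the endometrium, blocks that release and so keeps progesterone high. Endometrial transcripts can thus change with the day in cyclic animals, with the conceptus, or with both, and 4 groups are needed to see which of these patterns a transcript follows.

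Libraries held 1256870 to 3764342 counts. Levels are CPM, read counts divided by the library total and multiplied to a common scale, with the totals corrected by TMM (trimmed mean of M values), and 3 counts corresponded to 0.529 to 2.37 CPM per heifer. For pregnant day 16 heifer 12, 2 libraries were made, and their counts were summed to 1 value unless stated. These libraries were not alike: their chi-square per degree of freedom over transcripts with 20 or more counts between them was 6.85, place 51 of 210 library pairs from the closest. Library 2 was nearest to the library labelled heifer 19 (2.001, the closest of the 210 pairs, with the next pair at 3.30). Library 1 was nearest to the library labelled heifer 1 (3.76, place 4 of 210), the shallowest of all. The measure tends to grow with the number of counts, so places of pairs of unlike depth are not directly comparable. Differences that rest on the libraries of heifer 12 are also given under other treatments of that heifer. Intervals on counts are exact Poisson or binomial intervals and so cover counting error only. Reads that lack molecular identifiers can copy the same molecule, which these intervals do not allow for, so they may be too narrow. In whole tissue, fewer cells of a type and less RNA per cell cannot be told apart.

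ENSBTAT00000002431 was highest in cyclic day 16 heifers and lowest in pregnant day 16 heifers. In cyclic heifers at day 13 its level was 5.19 CPM in heifer 5, 4.17 in heifer 8, 2.48 in heifer 10, 4.08 in heifer 13 and 7.37 in heifer 18. In cyclic heifers at day 16 it was 6.24 CPM in heifer 3, 15.2 in heifer 7, 10.5 in heifer 15, 13.8 in heifer 16 and 11.02 in heifer 17. Of these 5, 4 lay above every cyclic day 13 heifer, and heifer 3 lay below heifer 18 of day 13. In 24 of the 25 pairs of a day 13 with a day 16 cyclic heifer, the day 16 animal was the higher one.

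In pregnant heifers the same transcript went the other way between the days. At day 13 it was 1.79 CPM in heifer 2, 4.82 in heifer 9, 10.8 in heifer 11, 6.04 in heifer 14 and 10.7 in heifer 20. At day 16 it was 0 in heifer 1, 1.12 CPM in heifer 4, 2.08 in heifer 6, 3.70 in heifer 12 and 1.23 in heifer 19. Every pregnant day 16 heifer but number 12 had 4 or fewer counts. For the 0 of heifer 1, the shallowest library, 3 counts would be 2.37 CPM, and the exact 95% counting interval reached 2.92 CPM. Of the pregnant day 13 heifers, 4 of 5 lay above all pregnant day 16 heifers, and heifer 2 lay among them. With library 1 alone for heifer 12 this count was 3 of 5, and with library 2 alone it was 4 of 5.

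**Figure D1:**
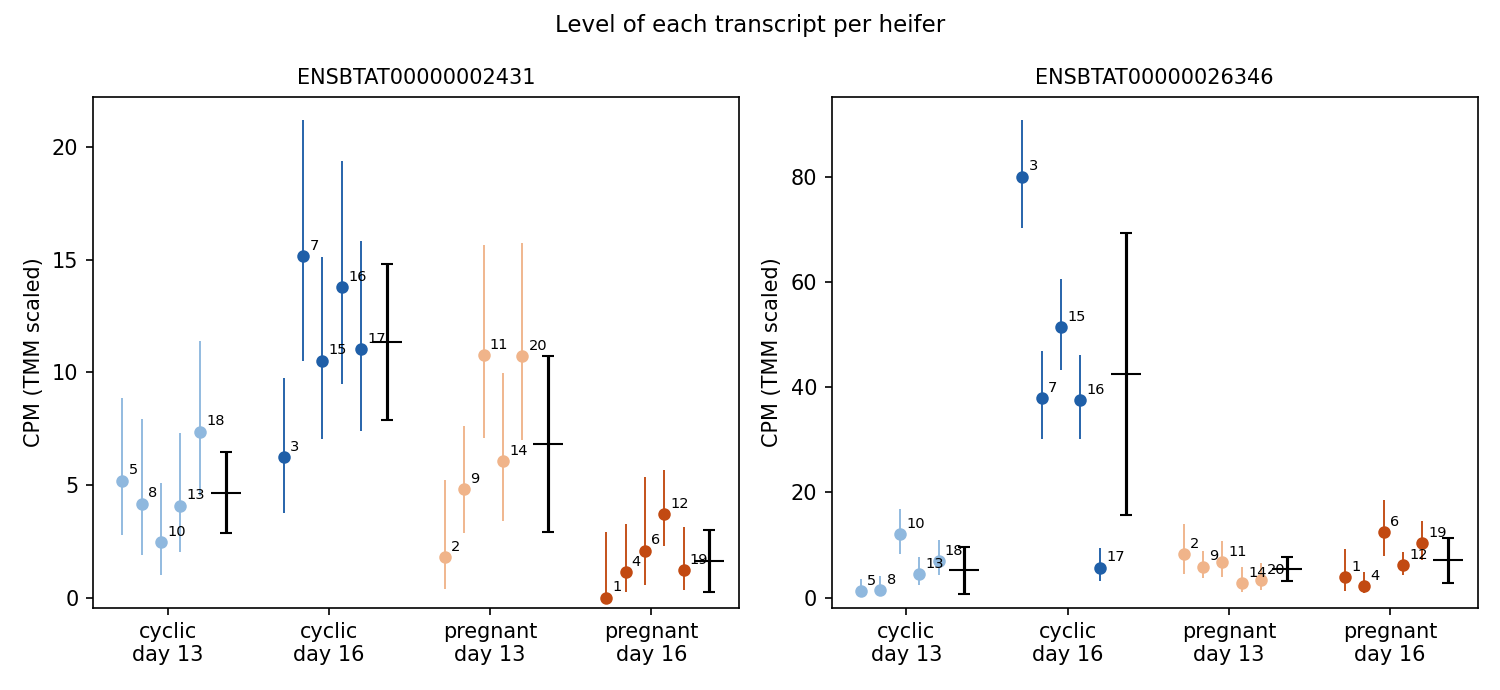
Level of each transcript in CPM (vertical axis, linear) for each heifer, numbered as in the labels, in the 4 groups; thin bars are exact 95% counting intervals and black marks are the group mean with 1 SD (n = 5). ENSBTAT00000002431 averaged 11.3 CPM in cyclic and 1.63 CPM in pregnant day 16 heifers, and ENSBTAT00000026346 reached 37.6 CPM or more in 4 of the 5 cyclic day 16 heifers and stayed at or below 12.5 CPM in all other heifers.

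The group mean of ENSBTAT00000002431 was highest in cyclic heifers at day 16, at 11.3 ± 3.44 CPM (SD, n = 5 here and below). It was followed by 6.83 ± 3.90 CPM in pregnant heifers at day 13, then by 4.66 ± 1.80 CPM in cyclic heifers of the same day, and was lowest, at 1.63 ± 1.38 CPM, in pregnant heifers of day 16. In that order, pregnant day 13 overlapped with both of its neighbours, so that its place between them is not settled by these heifers. Of the cyclic day 13 heifers, 4 of 5 lay above all pregnant day 16 heifers, the exception being heifer 10. That count was 1 of 5 with library 1 alone for heifer 12, when the pregnant day 16 mean was 2.08 ± 2.30 CPM, and 5 of 5 with library 2 alone, when it was 1.17 ± 0.754 CPM. At day 16 the lowest cyclic heifer (number 3, 6.24 CPM) was above the highest pregnant one (number 12, 3.70 CPM), so these groups did not overlap; 0.574% of all transcripts tested separated these groups with pregnant heifers lower. The fitted log2 fold change, pregnant minus cyclic, was -2.47 (SE 0.44) at day 16, or 5.56-fold lower.

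Between days, the fitted change of ENSBTAT00000002431 was 1.26 (SE 0.40) on the log2 scale in cyclic heifers, a 2.40-fold higher level at day 16 with a 95% interval of 1.36 to 4.24. In pregnant heifers it was -1.78 (SE 0.46), a 3.44-fold lower level at day 16. Both of these contrasts use day 16 heifers by which the transcript was picked, so no test is attached to them. For the same reason the interval, which does not allow for that choice, is a description only. The lower value in pregnancy at day 16 was thus made up of a higher level in cyclic heifers and a lower level in pregnant heifers than at day 13, and the pregnant day 16 mean was below the cyclic day 13 mean.

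ENSBTAT00000026346 stood apart in cyclic day 16 heifers. At day 13 cyclic heifers had 1.20 CPM (heifer 5), 1.39 (heifer 8), 12.03 (heifer 10), 4.45 (heifer 13) and 7.001 (heifer 18). At day 16 cyclic heifers had 80.1 CPM (heifer 3), 37.9 (heifer 7), 51.5 (heifer 15), 37.6 (heifer 16) and 5.70 (heifer 17). The first 4 of these lay above all 15 heifers of the other groups, whereas heifer 17, with 15 counts against 85 to 244 in the others, lay within the range of the day 13 animals. Heifer 17 was not low for ENSBTAT00000002431, where its 11.02 CPM was the median of its group.

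In pregnant heifers ENSBTAT00000026346 stayed low at both days. At day 13 they had 8.34 CPM (heifer 2), 5.89 (heifer 9), 6.78 (heifer 11), 2.82 (heifer 14) and 3.30 (heifer 20). At day 16 they had 3.95 CPM (heifer 1), 2.24 (heifer 4), 12.5 (heifer 6), 6.17 (heifer 12) and 10.4 (heifer 19). The ranges at the 2 days overlapped widely, with the day 16 animal higher in 15 of 25 pairs, or in 12 and 17 with only library 1 or only library 2 of heifer 12. The group mean was 42.6 ± 26.9 CPM (SD, n = 5) for cyclic heifers of day 16. The other 3 means were 7.06 ± 4.32 CPM for pregnant heifers of day 16, 5.43 ± 2.34 CPM for those of day 13 and 5.21 ± 4.50 CPM for cyclic heifers of day 13, and these did not differ beyond their spread. With library 1 alone the pregnant day 16 mean was 5.97 ± 5.20 CPM, and with library 2 alone it was 8.17 ± 4.73 CPM.

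The fitted change of ENSBTAT00000026346 between days was 2.98 (SE 0.58) on the log2 scale in cyclic heifers, a 7.88-fold higher level at day 16 with a 95% interval of 3.42 to 18.2. In pregnant heifers it was 0.41 (SE 0.66), a 1.33-fold higher level with a 95% interval of 0.512 to 3.46. As for ENSBTAT00000002431, these contrasts carry no test, and their intervals do not allow for the choice of the transcript. Pregnant minus cyclic at day 16 was -2.58 (SE 0.56), or 5.98-fold lower, and the groups overlapped through cyclic heifer 17 alone. Its pregnant day 16 mean was not below the day 13 mean of either state, whereas that of ENSBTAT00000002431 was below both. The difference at day 16 thus went with the higher cyclic level of that day, without a lower pregnant mean. Whether the pregnant level changed between days is not settled by these heifers.

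**Figure D2:**
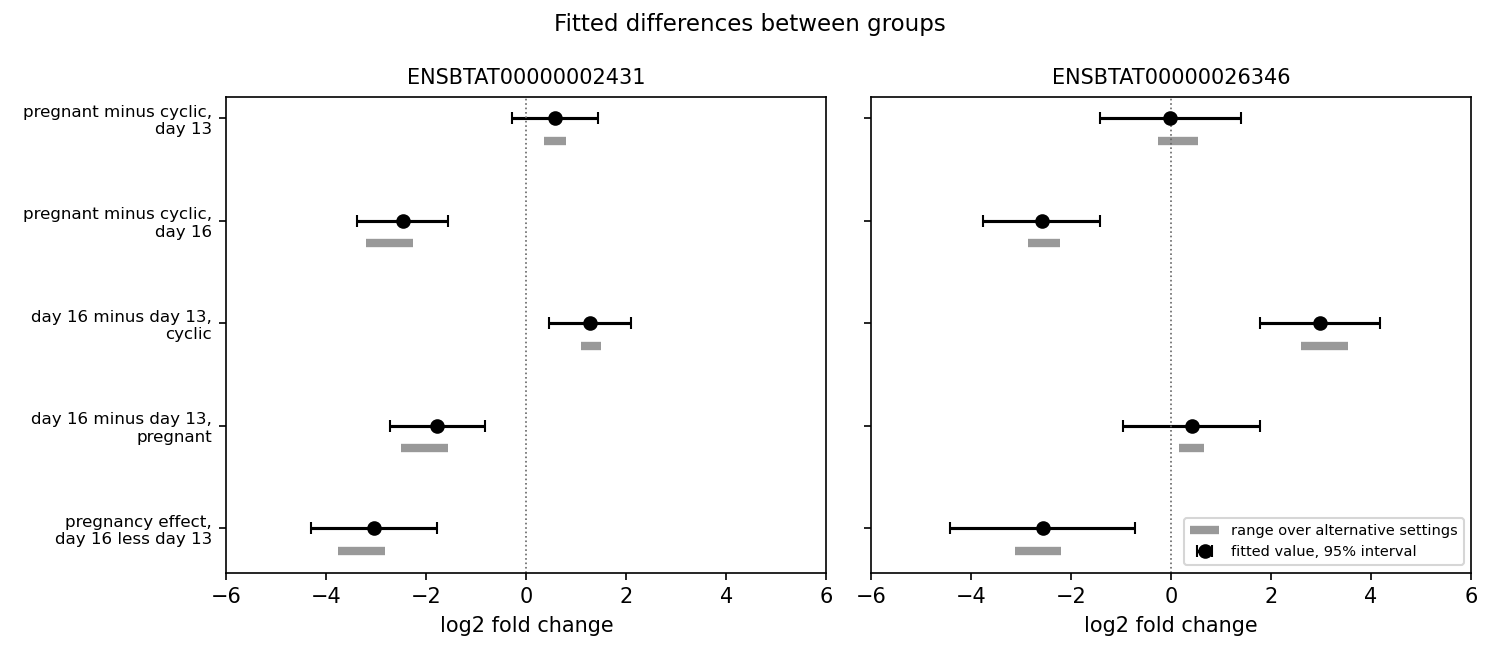
Fitted log2 fold changes (horizontal axis) of the 2 transcripts in 5 contrasts, with 95% intervals in black and the range over the alternative settings in grey. Except for pregnancy at day 13, the intervals share day 16 heifers with the choice of the pair and do not allow for it. In pregnant heifers the change between days was -1.78 for ENSBTAT00000002431 and 0.41 for ENSBTAT00000026346, while in cyclic heifers both values were above 0, at 1.26 and 2.98.

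Day 13 heifers were not part of the comparison that picked the pair, although they shared its estimates of spread, so pregnancy at day 13 could be tested. Neither transcript passed. For ENSBTAT00000002431 pregnant minus cyclic was 0.57 (SE 0.42, 95% interval -0.29 to 1.43) on the log2 scale, with an edgeR adjusted p of 0.712 over 14807 transcripts. The pregnant day 13 heifer was the higher one in 17 of 25 pairs, with 2 pregnant heifers above and 1 below the whole cyclic range. For ENSBTAT00000026346 it was -0.02 (SE 0.67, interval -1.43 to 1.39; edgeR adjusted p = 0.996), with the pregnant heifer higher in 14 of 25 pairs. The intervals allow a day 13 level in pregnancy of 0.819 to 2.69 times the cyclic level for the former and 0.372 to 2.63 times for the latter, so a lowering at day 13 as large as the fitted one at day 16 lay outside both, and these data do not separate the values within each interval. Over all transcripts edgeR called 0 (0%) at day 13, with 1043 at an unadjusted p under 0.05, while DESeq2 called 3 and limma voom 0.

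The deposited file names carry 1 of 4 number codes, called runs A to D here, and the labels do not say what the codes mark. At day 13 the sign of the pregnancy difference in mean log2 CPM was not shared by the runs. For ENSBTAT00000002431 run A gave 1.46 (2 pregnant heifers against 1 cyclic), run B -0.19 (2 against 3) and run C 0.18 (1 against 1). For ENSBTAT00000026346 it was -1.30, 0.50 and 1.64 in the same runs, and 0.32 over all 10 heifers, where the fitted value was -0.02.

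At day 16 the difference was below 0 in both runs that held both states. This comparison picked the pair, so the shared sign supports nothing. The day 16 groups of ENSBTAT00000002431 did not overlap, so any split of them into runs gives that sign. For ENSBTAT00000002431 run A gave -2.63 (2 pregnant heifers against 1 cyclic) and run C -2.21 (2 against 3), and for ENSBTAT00000026346 it was -3.20 and -2.11. Heifer 12 was in run A, where the values were -2.29 and -4.30 with its library 1 alone and -3.10 and -2.76 with its library 2 alone. Between days in cyclic heifers run A gave 1.80 (1 heifer of each day) and run C 1.11 (3 heifers of day 16 against 1 of day 13) for ENSBTAT00000002431, and 2.03 and 3.67 for ENSBTAT00000026346. Between days in pregnant heifers, runs A, B and C held 2, 1 and 2 heifers of day 16 against 2, 2 and 1 of day 13. In these runs ENSBTAT00000002431 had -2.28, -1.45 and -1.28, all lower at day 16. ENSBTAT00000026346 had 0.14, 0.88 and -0.08, with no common sign. In run A these became -1.94 and -0.97 with library 1 alone, and -2.75 and 0.56 with library 2 alone. Run D held 1 heifer, cyclic day 16 number 7.

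Although both transcripts were high in most cyclic day 16 heifers, no relation between their levels was established over the day 13 heifers or within groups. The 10 day 13 heifers were not part of the comparison that picked the pair. Over these, with both states pooled and group means kept, the Pearson correlation of log2 CPM was -0.26 (permutation p = 0.458, adjusted over 2 relations 0.645). Spearman's rho was -0.28 (permutation p = 0.428, adjusted 0.828). Without the 2 heifers farthest from the median of ENSBTAT00000026346 (cyclic day 13 numbers 5 and 8) Pearson's r was -0.55. Over all 20 heifers, with each group's mean removed, r was -0.10 (permutation p = 0.645, adjusted 0.645) and rho was -0.05 (permutation p = 0.828, adjusted 0.828), and r was -0.10 without heifers 17 and 5. A correlation of the pair over all 20 heifers without removing group means is not reported, because the group means took part in the choice of the pair.

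Single heifers held opposite places for the pair in some groups. Heifer 3 was the lowest of the cyclic day 16 group for ENSBTAT00000002431 (6.24 CPM) and the highest for ENSBTAT00000026346 (80.1 CPM). Heifer 10 held the same 2 places among cyclic day 13 heifers (2.48 and 12.03 CPM), and heifer 2 among pregnant day 13 heifers (1.79 and 8.34 CPM). This was so in 3 of the 4 groups. In pregnant day 16 heifers the lowest for ENSBTAT00000002431 was heifer 1 and the highest for ENSBTAT00000026346 was heifer 6. The reverse places, highest for ENSBTAT00000002431 and lowest for ENSBTAT00000026346, fell to different heifers in each group. They were heifers 18 and 5 in cyclic day 13 and 7 and 17 in cyclic day 16 heifers. In pregnant heifers they were 11 and 14 at day 13 and 12 and 4 at day 16. With library 1 alone, heifer 12 held both of these places at day 16. The count of 3 groups was made after the values were seen and carries no test.

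**Figure D3:**
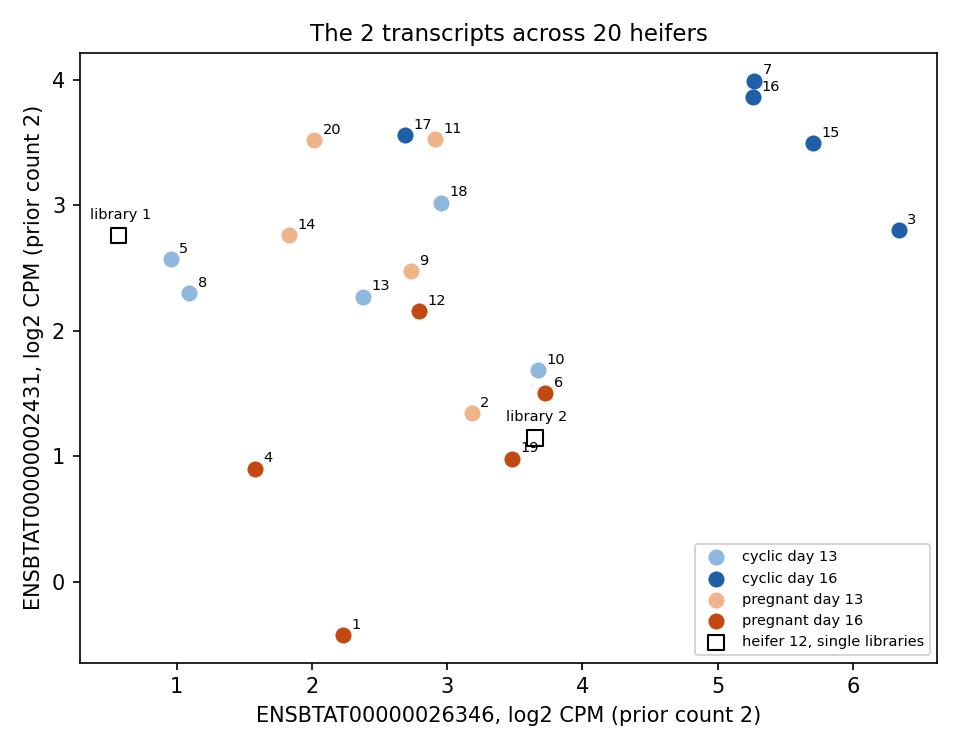
Log2 CPM (prior count 2) of ENSBTAT00000002431 (vertical axis) against ENSBTAT00000026346 (horizontal axis) for the 20 heifers, coloured by group and numbered; open squares are the 2 libraries labelled heifer 12 taken singly. Cyclic day 16 heifers 3, 7, 15 and 16 lie far to the right, heifer 17 lies among the day 13 heifers, and the 2 squares lie apart, with library 2 beside heifer 19.

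The 2 libraries labelled heifer 12 held opposite values of the pair. ENSBTAT00000002431 had 17 counts in library 1 (5.98 CPM, exact 95% counting interval 3.48 to 9.57) and 4 counts in library 2 (1.43 CPM, 0.389 to 3.65). Library 1 was thus 4.19 times library 2, with an exact counting interval of 1.37 to 17.1. ENSBTAT00000026346 had 2 counts in library 1 (0.703 CPM, 0.0852 to 2.54) and 33 counts in library 2 (11.8 CPM, 8.10 to 16.5), so that library 2 was 16.7 times library 1, with an interval of 4.28 to 144.0. Neither counting interval holds 1, and the 2 transcripts differed in opposite directions. The summed values of heifer 12, 3.70 and 6.17 CPM, lie between those of its libraries and describe neither.

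Library 2 of heifer 12 and the library labelled heifer 19 were close for both transcripts. ENSBTAT00000002431 had 4 counts in each, a ratio of 1.16 (exact 95% counting interval 0.217 to 6.24), and ENSBTAT00000026346 had 33 and 34 counts, a ratio of 1.13 (0.677 to 1.88). Library 1 differed from heifer 19, with 4.87 times its level of ENSBTAT00000002431 (1.59 to 19.9) and 0.0674 times its level of ENSBTAT00000026346 (0.00784 to 0.263). Which label is right was not tested.

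**Figure D4:**
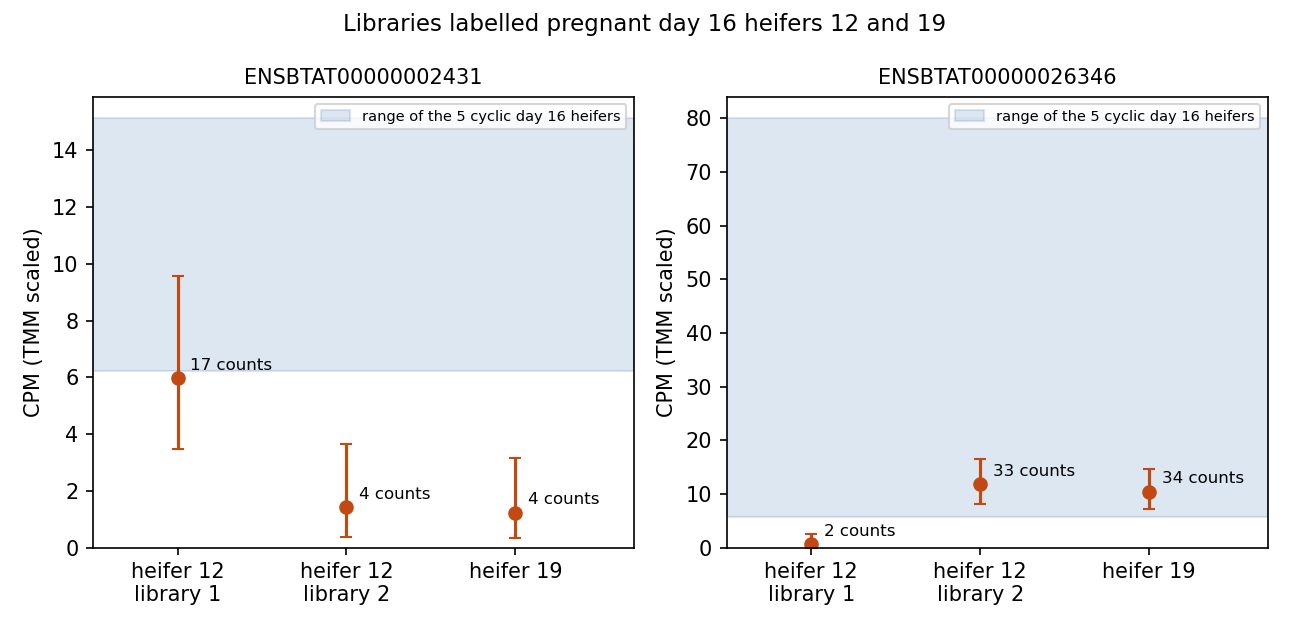
CPM (vertical axis, linear, from 0) of both transcripts in the libraries labelled heifer 12 and in that of heifer 19, with exact 95% counting intervals and the counts written beside each point; the shaded band is the range of the 5 cyclic day 16 heifers. Library 1 reached 5.98 CPM of ENSBTAT00000002431, just under the band, and fell below the band for ENSBTAT00000026346 at 0.703 CPM.

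How heifer 12 was treated changed the size of the differences at day 16 and between days in pregnant heifers. With library 1 alone, ENSBTAT00000002431 in heifer 12 was 5.98 CPM, with the lowest cyclic heifer at 6.24 CPM, so the groups were separated by less than either animal's counting interval, and pregnant minus cyclic was -2.27 (SE 0.48). With library 2 alone the highest pregnant heifer was number 6 at 2.08 CPM and the difference was -3.12 (SE 0.45). It was -2.32 with library 2 summed with heifer 19, -3.18 without heifer 12 and -3.20 without heifers 12 and 19. The change between days in pregnant heifers was -1.58 with library 1 alone, -2.42 with library 2 alone, -2.48 without heifer 12 and -2.50 without heifers 12 and 19. All of these values were below 0.

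ENSBTAT00000026346 moved the other way with the same choices. Pregnant minus cyclic at day 16 was -2.84 (SE 0.64) with library 1 alone, -2.34 (SE 0.56) with library 2 alone, -2.73 with library 2 summed with heifer 19 and -2.79 without heifers 12 and 19. Its change between days in pregnant heifers was 0.16 with library 1 alone, 0.65 with library 2 alone and 0.20 without heifers 12 and 19, in each case smaller than its SE. The correlation with group means removed was -0.33 with library 1 alone, -0.32 with library 2 summed with heifer 19 and -0.09 with library 2 alone, with adjusted permutation p of 0.382, 0.413 and 0.680.

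Both transcripts varied more between heifers than most. Their biological coefficients of variation in edgeR were 36.3% and 62.2%, against a median of 18.4% over all transcripts tested, and 93.9% and 99.2% of these had a lower one. Among 1797 transcripts within 0.5 log2 units of its mean CPM, ENSBTAT00000002431 had a within-group SD of 0.74 log2 units against a median of 0.46. Among 2540 such transcripts for ENSBTAT00000026346 the SD was 1.05 against a median of 0.35. Both sets were matched on the mean over all heifers, not on group means. Taken by group, the SD of ENSBTAT00000002431 was 0.49 and 0.46 log2 units in cyclic day 13 and day 16 heifers, near that median of 0.46. In pregnant heifers it was 0.90 at day 13 and 0.95 at day 16, where every heifer but number 12 had 4 or fewer counts. The SD of ENSBTAT00000002431 in CPM was 1.33 (cyclic day 13) to 2.37 (pregnant day 13) times that from counting alone. For ENSBTAT00000026346 it was 1.52 times in pregnant day 13 heifers, nearer to counting than ENSBTAT00000002431 in that group, and 6.74 times in cyclic day 16 heifers, where heifers ranged 14.1-fold from number 17 to number 3.

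Few transcripts followed either pattern closely across heifers, but how many follow other transcripts of like abundance was not counted. Of 13634 others with a mean of at least 5 CPM, 3 had a Pearson correlation above 0.7 with ENSBTAT00000002431 over the 20 heifers and 7 with ENSBTAT00000026346, and 0 exceeded 0.8 with either. Below -0.7 there were 31 and 9, and below -0.8 there was 1 for each. The most similar to ENSBTAT00000002431 was ENSBTAT00000030064 (r = 0.73), which at day 16 averaged 76.3 ± 16.6 CPM (SD, n = 5) in cyclic heifers and 47.9 ± 18.6 CPM (n = 5) in pregnant ones. At day 13 ENSBTAT00000030064 averaged 71.1 ± 9.76 CPM in cyclic and 72.7 ± 19.8 CPM in pregnant heifers (n = 5 each). Its fitted change between days in cyclic heifers was 0.10 (SE 0.23) on the log2 scale, so it did not share the cyclic rise. It also had its lowest value in pregnant heifer 1, at 15.8 CPM. How much of r rests on that heifer was not tested. The most similar to ENSBTAT00000026346 was ENSBTAT00000017807 (r = 0.77), which averaged 50.3 ± 9.26 CPM (n = 5) in cyclic day 16 heifers and 29.1 ± 4.72 to 32.9 ± 13.9 (n = 5 each) in the other 3 groups, with cyclic heifer 17 again the lowest of its group at 36.5 CPM. With library 1 alone for heifer 12 these r were 0.71 and 0.73, each in place 2, and with library 2 alone 0.70 in place 2 and 0.78 in place 1. The number below -0.7 was 6 and 2 with library 1 alone and 53 and 8 with library 2 alone. These correlations share the heifers and group means that picked the pair and are given as a description.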

How the data were processed

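The authors deposited raw counts of reads for each Ensembl transcript identifier, in 1 file for each of 21 single-read Illumina libraries of endometrium. Per the submitters' processing notes CASAVA was used, without a stated version or role. The aligner, the counter and the build used are not stated in those sources. Groups came from the labels. The 2 libraries of heifer 12 were summed.

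Transcripts were kept by filterByExpr of edgeR (version 4.0.16, R 4.3.3; minimum count 10, minimum total 15), scaled with TMM factors on library totals over all identifiers, and fitted with a robust quasi-likelihood model of 4 group means over 20 heifers. Benjamini-Hochberg adjustment covered 14807 transcripts, and the SE is the log2 fold change divided by the root of F. Log2 CPM used a prior count of 2, and correlations were tested two-sided with 100000 permutations, within groups where group means were removed. The fit was tested on simulated data. Alternatives used DESeq2 1.42.0, limma 3.58.1, other scalings and filters, the run code, other treatments of heifer 12, and each heifer left out in turn.

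The 2 transcripts and the lists were chosen with earlier results of these data known. Besides the pair, the transcript with the highest Pearson correlation to each was named (mean of at least 5 CPM); gene lists were not used, since no identifier had a gene name. Apart from the 2 libraries of heifer 12, each library carries a heifer number of its own in the labels, so p-values measure the spread between heifers as labelled.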

Additional observations from a re-analysis of the deposited data

Results flagged for a closer look

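The fitted effect of pregnancy on ENSBTAT00000002431, day 16 less day 13, was -3.04 (SE 0.61) on the log2 scale in edgeR. It was flagged by a rule that asked for an edgeR adjusted p under 0.05, which ENSBTAT00000026346 did not meet. This difference contains the day 16 comparison by which the transcript was picked, so the flag supports nothing and no p-value is attached. It was -3.75 without pregnant heifer 12, and -2.84 and -3.69 with only library 1 or only library 2 of that heifer. For ENSBTAT00000026346 the same difference was -2.57 (SE 0.89). A search of 8 sets of 5 CPM values for a heifer standing far off its group found 0, where about 1 in 20 sets would give one by chance.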

How the results depend on the processing

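The 2 fitted differences at day 13 stayed on the same side of the threshold under all 32 alternatives, with edgeR, DESeq2 or limma adjusted p of 0.502 to 0.999 for ENSBTAT00000002431 and 0.815 to 1.0 for ENSBTAT00000026346. Alternatives that changed only day 16 heifers left the day 13 heifers as they were and could hardly move these differences. For ENSBTAT00000002431 the value lay between 0.34 and 0.79, the ends being without pregnant heifer 11 and without cyclic heifer 18. For ENSBTAT00000026346 the main value of -0.02 changed sign under 7 alternatives: it was 0.038 with DESeq2, 0.32 with limma voom and 0.0086 with the run code as a term, and leaving out 1 heifer gave -0.26 to 0.54, with values above 0 without cyclic heifers 10 (0.54) or 18 (0.09) and without pregnant heifers 14 (0.13) or 20 (0.11). The cause was not tested. The day 16 and day contrasts, described without a test, kept their sign under every alternative run. Leaving out 1 heifer gave -3.18 to -2.32 and -2.86 to -2.22 for pregnancy at day 16 (ENSBTAT00000002431 and ENSBTAT00000026346, in this order), 1.09 to 1.49 and 2.60 to 3.53 for the days in cyclic heifers, -2.48 to -1.57 and 0.19 to 0.64 for the days in pregnant heifers, and -3.75 to -2.83 and -3.13 to -2.20 for the difference between the pregnancy effects. The adjusted p by which they were picked was under 0.05 in 32 of 32 alternatives for ENSBTAT00000002431 and in 21 of 32 for ENSBTAT00000026346. For the latter it was 0.0602 without the filter, 0.114 with limma voom, 0.129 with only the day 16 groups, 0.0905 with the run code, 0.0543 with library 2 alone and 0.15 without heifers 12 and 19. Leaving out cyclic heifer 3 or 15 gave 0.0876 and 0.0603, and leaving out pregnant heifer 1, 4 or 12 gave 0.0662, 0.071 and 0.0848. With only pregnant heifers in the fit ENSBTAT00000002431 did not pass the filter on low counts and has no value. With the run code in the fit, cyclic heifer 7, alone in run D, adds nothing to the contrasts. Pearson's r stayed below 0 and reached no adjusted permutation p under 0.05 in 26 alternatives for each relation. It ran from -0.42 to -0.06 at day 13 and from -0.33 to -0.00111 with group means removed. At day 13, alternatives that changed only day 16 heifers could barely move r, so they are not separate checks of its sign. There r was weakest without cyclic heifer 10 (-0.055) and without pregnant heifer 2 (-0.091). Spearman's rho with group means removed rose above 0 with library 2 alone (0.029), without pregnant heifer 12 (0.005) and without pregnant heifer 2 (0.046). At day 13 without heifer 2, leaving out the 2 heifers then farthest from the median (5 and 10) gave r of 0.39, against -0.55 with heifer 2 kept. Leaving out heifers 12 and 19 together, and other treatments of heifer 12 for counts, means, run A and similar transcripts, were chosen after seeing the data. No paired analysis was possible because no heifer number is shared between groups.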
